A study of Mus musculus with 10 samples.

Results

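The serine/threonine phosphatase catalytic subunits described here are 10 genes, Ppp1ca, Ppp1cb, Ppp1cc, Ppp2ca, Ppp2cb, Ppp3ca, Ppp3cb, Ppp4c, Ppp5c and Ppp6c, taken by symbol from 53379 genes counted in each library. All 10 were found under 1 identifier each, and all 10 passed the filter on low counts that left 19754 genes for testing. Ppp4c is in the study's own lists of genes that are lower in appetitive than in neutral and in aversive cells, so it was chosen by its level in the appetitive libraries. For this reason no p-value is given for any of the 10 genes in those comparisons, and none for Ppp4c in any comparison.

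RNA-seq was carried out on hippocampal cells of male mice 5 weeks old, sorted for EYFP, to ask whether cells tagged by an appetitive or an aversive experience have distinct transcriptional profiles. The labels and the study's methods speak of cells and its results of nuclei, and which of them the counts describe is not settled here. The labels give 8 pooled mice per condition, so the libraries of a group are not shown to be separate animals and p-values measure the spread between libraries, which may be technical. Total counts ranged from 16968588 in appetitive 2 to 67650693 in neutral 2. The aversive group (2 libraries, labelled neg) received 4 foot shocks of 2 s at 1.5 mA, and the appetitive group (2 libraries, pos) was placed with a female for 1 h in a clean homecage, for which the study's methods give a longer time. The neutral group (3 libraries, neu) was exposed to the conditioning cage with neither stimulus, and the mock group (3 libraries, mock) is labelled as mice in the home cage. The tag came from AAV9-TRE-ChR2-EYFP given together with AAV9-c-Fos-tTA: a transactivator made under the c-Fos promoter turns on EYFP unless doxycycline is in the diet, so EYFP marks cells in which this promoter was active off doxycycline. The labels describe the ChR2-YFP transgene for mock mice too, whereas the study's methods call mock an untagged control from fewer mice, and which of the descriptions holds cannot be told from the counts. The neutral libraries were prepared with another version of the SMART-Seq v4 kit and read as pairs of 100 bases, the other 7 libraries as single reads of 40 bases, so the neutral condition and the preparation cannot be told apart.

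The sorted material was not mainly neuronal by its markers. The 11 neuron markers together took 0.00857% (neutral 1) to 0.0713% (aversive 3) of the counts of a library, with Snap25 the most abundant. Neurod6, Gad1 and Gad2 were at 0 in both appetitive libraries, but Snap25 was at 577 and 154 CPM in appetitive 1 and 2, the former its highest level. Gad1 was also at 0 in neutral 1 and 3, and Gad2 in aversive 1 and neutral 1 and 2. The 6 oligodendrocyte markers, led by Mbp, took 38.5% of counts in appetitive 1, 31.4% in mock 1, 30.2% in aversive 1 and 27.5% in mock 2, and less in each of the other 6 libraries, down to 0.923% in neutral 3. Choroid plexus and ependyma markers, nearly all of it Ttr, summed to 21097 to 129869 CPM in the neutral libraries and to 848 to 13497 CPM elsewhere. Astrocyte markers, led by Aldoc, summed to 150 to 332 CPM in neutral and 3071 to 14282 CPM elsewhere. In such bulk samples fewer cells of a type and less RNA per cell cannot be told apart, and the part of these cell types in the phosphatase values was not tested.

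Phosphatases of the PPP family remove phosphate from serine and threonine residues with a catalytic subunit that holds a pair of metal ions, and they gain their targets from regulatory subunits. PP1 and PP2A carry out much of this activity in most cells. Calcineurin is switched on by calcium and is known in hippocampal neurons for its role in long-term depression and in the dephosphorylation of NFAT factors. PP4, PP5 and PP6 are relatives with roles in DNA damage responses, in chaperone complexes and in mitosis.

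The 10 genes share the catalytic signature glycine-asparagine-histidine-glutamate, which lies in the metal-binding site and occurs once in each coding sequence. The stretches below are shown because they mark the family and show how far related members can be told apart by short reads. Each has 30 bases of coding sequence, 5′ to 3′ on the gene's strand, from the GRCm38 genome and GENCODE M21 transcripts, with the codons of the signature in capitals.
Ppp1ca: ctacttcgtGGGAACCATGAGtgtgccagc
Ppp1cb: cttctaagaGGAAACCATGAGtgtgctagc
Ppp1cc: cttctcagaGGGAACCACGAGtgcgccagc
Ppp2ca: atactccgaGGGAATCACGAGagcagacag
Ppp2cb: atattgcgaGGAAATCACGAAagccggcag
Ppp3ca: ttacttcgcGGAAACCATGAAtgtaggcac
Ppp3cb: cttctgagaGGCAACCATGAAtgcagacac
Ppp4c: ttgatccggGGCAATCATGAGagtcgccag
Ppp5c: ctacttcgaGGCAACCACGAGacagacaac
Ppp6c: cttttaagaGGAAATCATGAGagtagacag
The Ppp2ca stretch lies at chr11:52118011-52118040 on the plus strand and the Ppp4c stretch at chr7:126787557-126787586 on the minus strand, both within 1 coding exon, and that of Ppp5c is the only one that spans an exon junction. Against Ppp2ca, the stretch differed at 6 of 30 bases in Ppp2cb, 8 in Ppp6c, 9 in Ppp4c and 15 in Ppp1cb. Over the aligned coding sequence Ppp2ca and Ppp2cb were 82.1% identical, with a longest shared run of 25 bases, and Ppp3ca and Ppp3cb 76.1% identical with a longest run of 20. Ppp1ca and Ppp1cc were the only members that had any run of 40 bases, the length of read that was mapped, in common, and they shared 5 such words.

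Sequence shared with genes outside the family was more extensive. Of the 40-base words in the exons of Ppp1cc, 40.9% were also found in other genes, 39.8% in Ppp1ccb, a near-identical copy, so values of Ppp1cc are uncertain. Of the words of Ppp2ca (chr11:52098681-52127778, plus strand), 42.1% also lie in other genes, 39.2% in 9430098F02Rik, which overlaps it on the opposite strand. As counting ignored strand, reads from this stretch of Ppp2ca and its overlapping partner cannot be told apart. The share was 16.8% in Ppp1cb, through Gm43312, and 11.9% in Ppp1ca, mostly through Rad9a and AC109138.6 on the opposite strand, and between 0.0% and 1.46% in the other 6 genes, Ppp4c among them.

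Ppp1ca, which encodes the alpha isoform of PP1, was the most abundant of the 10 genes per kilobase of exon, with a mean of 104 CPM per kilobase over the 10 libraries, above 98.2% of 19727 tested genes. Ppp2ca (48.0 CPM per kilobase), Ppp2cb (41.6), Ppp5c (24.8), Ppp4c (16.7), Ppp1cb (12.6), Ppp6c (11.7) and Ppp3ca (10.5) followed. Ppp3cb at 2.39 and Ppp1cc at 1.19 CPM per kilobase were lowest, the latter above 39.2% of tested genes. The spans over libraries of all neighbours in this order overlapped, although within each library Ppp1ca was the highest of the 10, and the places depended on which length was used. With the length of the principal coding transcript, chosen as an alternative after the data were seen, Ppp4c moved from place 5 to place 2 and Ppp3ca from place 8 to place 4, because their summed exons, 4281 and 9981 bases, are much longer than these transcripts, 1359 and 2194 bases.

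The share of Ppp1ca in the family varied little, whereas those of the other members varied several-fold. Ppp1ca took between 28.2% (aversive 3) and 42.1% (neutral 3) of the summed level per kilobase in every library. Ppp2ca varied from 5.26% in aversive 3 to 28.9% in appetitive 2, and Ppp2cb from 3.63% in mock 3 to 27.2% in appetitive 1. Ppp5c held 25.4% in neutral 1 and 0.663% in appetitive 1. Ppp4c took 4.52% to 11.5% in the mock, aversive and neutral libraries, against 0.0316% and 0.0718% in the appetitive ones.

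**Figure D1:**
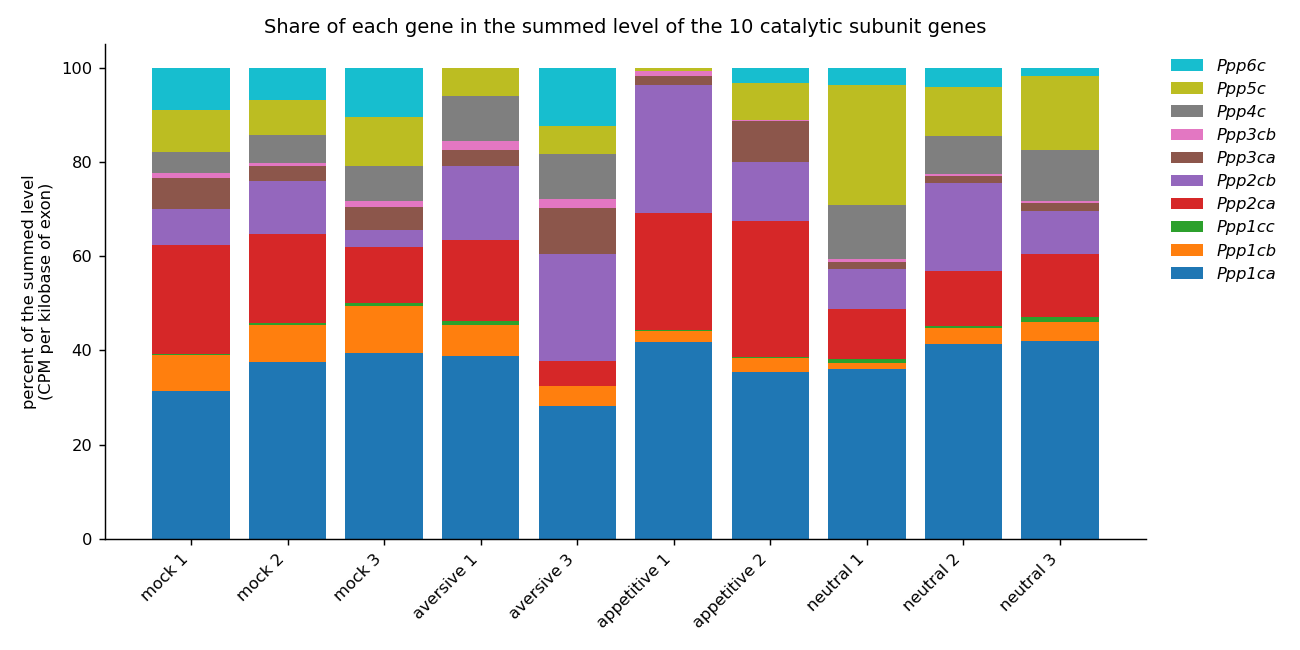
Stacked bars give, for each of the 10 libraries, the percent of the summed level (CPM per kilobase of exon) that each of the 10 genes took. Ppp1ca took 28.2% to 42.1% in every library, and the Ppp4c segment is too thin to see in the appetitive libraries (0.0316% and 0.0718%).

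Ppp4c, the catalytic subunit of PP4, was nearly absent from both appetitive libraries and present in the other 8. It lies at chr7:126785866-126792496 on the minus strand of GRCm38, and no annotated exon of another gene overlaps its exons. Its counts were 8 in appetitive 1 and 17 in appetitive 2, or 0.626 and 0.890 CPM. In mock the levels were 41.1, 69.6 and 53.2 CPM in libraries 1 to 3. They were 113 and 72.6 CPM in aversive 1 and 3, and 111, 142 and 112 CPM in neutral 1, 2 and 3. The lowest level outside the appetitive group, in mock 1, was thus 46.2 times the highest level within it, and 3 counts, the smallest number taken as detected, correspond to 0.235 and 0.157 CPM in the appetitive libraries. Appetitive 1 and 2 also had the fewest genes with a count, 14144 and 14658, against 16849 (aversive 1) to 30899 (mock 3) in the other libraries. The part of this in the low values of Ppp4c, or of the regulatory genes near 0 named below, was not tested.

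As a description of what chose it, Ppp4c had a log2 fold change of -7.32 (SE 0.990) between appetitive and neutral, -6.93 (SE 0.987) between appetitive and aversive and -6.16 (SE 0.937) between appetitive and mock. These comparisons share the appetitive libraries and are not independent of each other. Of the 10 genes, 1 passed the threshold of an adjusted p under 0.05 in each of these comparisons, Ppp4c, as lower, where 5.23%, 1.69% and 1.96% of all tested genes passed as lower. As the choice used these libraries, nothing is read from this count. No other member was below all remaining libraries in the appetitive group. The call of Ppp4c depended on the fit. Between appetitive and mock it was lost without any 1 of the mock or neutral libraries. Between appetitive and aversive it was lost without mock 1, 2 or 3 or neutral 1 or 3. Without mock 1, 2 or 3, 0 of all tested genes were called in either of these comparisons. With each library left out, the log2 fold change of Ppp4c stayed between -6.63 and -6.13 against mock and between -7.34 and -6.68 against aversive. In a fit of the compared groups alone the call was lost against neutral and against aversive, and 1 member was still called as lower against mock. With a block for replicate number the call was lost against aversive and against mock, and 1 member was still called as lower against neutral. Where the call was lost in these fits, 0 of all tested genes were called. The log2 fold change of Ppp4c stayed about as large in the alternatives with no single library left out. It was -7.82 to -7.03 against neutral, -7.20 to -6.78 against aversive and -6.52 to -5.90 against mock.

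The aversive and neutral levels of Ppp4c also entered its choice, so the comparisons without the appetitive libraries are given as a description, with no p-value. Both aversive libraries had more Ppp4c than every mock library, and the fold change was 0.76 on the log2 scale (SE 0.683, 95% interval -0.74 to 2.27). Against neutral it was -0.39 (SE 0.698, interval -1.93 to 1.14), with overlapping groups. The neutral libraries were all above the mock libraries, by 1.16 on the log2 scale (SE 0.626, interval -0.22 to 2.54). All of these intervals span 0 and allow differences of more than 2-fold.

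**Figure D2:**
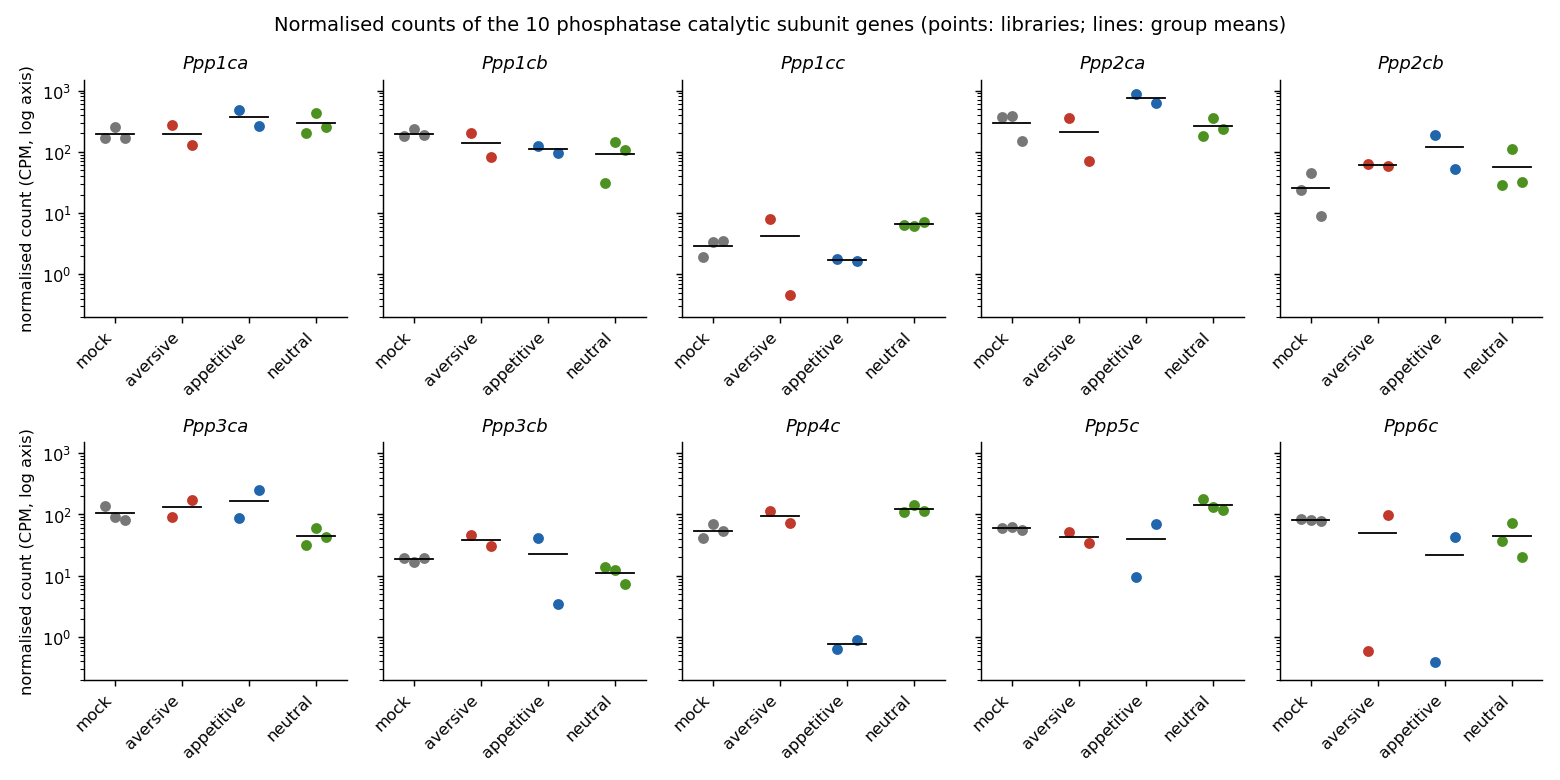
Points give the normalised count (CPM, log axis) of each gene in each library of the mock, aversive, appetitive and neutral groups, and lines the group means. Ppp4c is at 0.626 and 0.890 CPM in the appetitive libraries and at 41.1 CPM or more in all others, and Ppp6c is low in 1 of 2 libraries of the aversive and appetitive groups.

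Ppp6c, the catalytic subunit of PP6 and a close relative of PP4, was low in 1 library of each salient experience. It had 12 counts in aversive 1 against 4910 in aversive 3, and 5 in appetitive 1 against 827 in appetitive 2. In CPM these were 0.601 and 98.4 in aversive and 0.391 and 43.3 in appetitive. The mock libraries were close to each other, at 84.3, 82.7 and 78.4 CPM, and the neutral libraries held 37.5, 73.7 and 19.9 CPM. After adding 0.5 CPM to each value, a replicate gap as wide as that of Ppp6c was seen in 1.72% of tested genes in the aversive group and in 11.3% in the appetitive group, so such a gap was common in the latter. The libraries with low Ppp6c, aversive 1 and appetitive 1, were also those of their groups with the larger share of oligodendrocyte markers, 30.2% and 38.5% of counts, but mock 1, with 31.4%, had 84.3 CPM, and the part of these cells in the value was not tested. Against mock, Ppp6c changed by -0.72 on the log2 scale (SE 1.72, adjusted p = 0.922) in aversive and by -1.90 (SE 1.81, adjusted p = 0.506) in appetitive, neither past the threshold, and both appetitive libraries were below all mock libraries. With each library left out, the change between appetitive and mock ranged from -7.90 to -1.13.

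Ppp5c, which encodes a phosphatase bound to heat shock protein chaperones, was highest in the neutral libraries. They had 181, 135 and 117 CPM in libraries 1, 2 and 3, above every other library. Mock libraries had 59.7, 63.2 and 55.0 CPM, aversive 1 and 3 had 51.7 and 34.2 CPM, and appetitive 1 and 2 had 9.62 and 70.6 CPM. The appetitive libraries thus lay on both sides of the mock libraries. The fold change of neutral against mock was 1.28 on the log2 scale (SE 0.763, interval -0.40 to 2.96, adjusted p = 0.551), and that of aversive against neutral was -1.75 (SE 0.895, interval -3.72 to 0.22, adjusted p = 0.311). Neither passed the test, and the neutral libraries differ from the rest in their preparation as well.

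The calcineurin genes both had their lowest group mean in neutral, 45.2 CPM (SD 14.6, n = 3) for Ppp3ca and 11.2 CPM (SD 3.37, n = 3) for Ppp3cb. Snap25, the most abundant neuron marker, was also lowest there, at 24.4, 15.1 and 21.2 CPM against 44.2 CPM (mock 3) or more elsewhere. Another neuron marker, Syt1, was not, with 33.0, 13.2 and 10.3 CPM in neutral and 7.13, 4.53 and 10.4 CPM in mock. The part of cell types in the calcineurin values was not tested. Ppp3ca (chr3:136670124-136937727, plus strand), the main catalytic isoform in brain, was at 32.1, 60.9 and 42.4 CPM in neutral 1, 2 and 3, and all 7 other libraries were above these. Mock had 140, 89.4 and 82.7 CPM, aversive 1 and 3 had 92.4 and 175 CPM, and appetitive 1 and 2 had 88.3 and 250 CPM. As many as 1.13% of tested genes (223) were as far below all other libraries in the neutral group, after adding 0.5 CPM to each value. Between aversive and neutral the log2 fold change was 1.56 (SE 0.714, 95% interval -0.005 to 3.13), with an adjusted p of 0.263, and between neutral and mock it was -1.20 (SE 0.655, adjusted p = 0.491). Without overlap between groups but with wide intervals, these differences were not distinguished from the spread between libraries. As a description, with no p-value, Ppp3ca in appetitive against neutral was at 1.90 (SE 0.716, interval 0.33 to 3.48), also without overlap. The value was 0.88 to 2.36 with each library left out. Ppp3ca was not called there in the main fit, and nothing is read from the interval, as this comparison entered the choice of Ppp4c.

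Ppp3cb, the second calcineurin isoform, varied more. It had 46.0 and 30.1 CPM in aversive 1 and 3, above the mock libraries at 19.5, 16.6 and 19.8 CPM and the neutral ones at 13.8, 12.4 and 7.40 CPM. In appetitive 1 it was at 41.4 CPM and in appetitive 2 at 3.46 CPM (66 counts). The aversive libraries differed from neutral by 1.76 (SE 1.12, adjusted p = 0.410) and from mock by 1.03 (SE 1.12, adjusted p = 0.783) on the log2 scale. These 2 isoforms were the members with both aversive libraries above all neutral ones, as were 14.4% of tested genes, and Ppp5c was the 1 member with both below, as were 19.3%. No member passed the test between aversive and neutral, where 0.0405% of genes did. In that comparison 0 members had an unadjusted p under 0.05 in edgeR or a call in DESeq2. Of all 19754 tested genes 3765 had such a p, and DESeq2 called 1402 as higher and 1986 as lower of 20890.

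Both PP2A genes had their highest group mean in the appetitive libraries, 745 CPM (SD 166, n = 2) for Ppp2ca and 119 CPM (SD 92.9, n = 2) for Ppp2cb. Ppp2ca, the alpha isoform, was at 863 and 628 CPM in appetitive 1 and 2, above all other libraries. It was at 367, 385 and 149 CPM in mock, at 354 and 70.6 CPM in aversive 1 and 3 and at 182, 360 and 240 CPM in neutral 1, 2 and 3. The fold change of appetitive against mock was 1.31 on the log2 scale (SE 0.735, interval -0.31 to 2.93, adjusted p = 0.277). Ppp2cb, the beta isoform, at 185 and 53.3 CPM in appetitive 1 and 2, was above mock at 24.0, 44.8 and 8.98 CPM, with a log2 fold change of 2.20 (SE 0.977, interval 0.05 to 4.35) that was 0.82 without appetitive 1. The neutral libraries, at 28.6, 112 and 32.3 CPM, spanned the level of appetitive 2. Its unadjusted p of 0.0459 became 0.204 after adjustment over all genes, and the change did not pass the test. The aversive libraries, 63.1 and 59.7 CPM, were also above all mock libraries in Ppp2cb (log2 fold change 1.24, SE 0.968, adjusted p = 0.661).

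The PP1 isoforms Ppp1ca and Ppp1cb differed from mock in opposite directions in the appetitive and neutral libraries, neither past the test. Ppp1ca had 168, 258 and 167 CPM in mock 1, 2 and 3, 269 and 127 in aversive 1 and 3, 485 and 259 in appetitive 1 and 2, and 206, 427 and 254 in neutral 1, 2 and 3. Appetitive libraries were above all mock libraries, though the lower one, at 259 CPM, was close to mock 2 at 258 CPM, with a difference of 0.91 on the log2 scale (SE 0.626, adjusted p = 0.360). This difference was 0.18 to 1.10 with each library left out. The neutral libraries overlapped the mock libraries, with a difference of 0.58 (SE 0.569, adjusted p = 0.798). Ppp1cb, the beta isoform that also works in myosin phosphatase, was lower in the appetitive and neutral libraries than in mock. It was at 178, 234 and 185 CPM in mock, at 126 and 94.1 in appetitive 1 and 2 and at 31.0, 145 and 105 in neutral 1, 2 and 3, all below the mock libraries. Aversive 1, at 201 CPM, lay within the mock range and aversive 3, at 82.2 CPM, below it. On the log2 scale Ppp1cb was at -0.86 (SE 0.770, adjusted p = 0.484) in appetitive and at -1.09 (SE 0.679, adjusted p = 0.584) in neutral relative to mock. Ppp1cc, the gamma isoform, stayed between 0.461 CPM (aversive 3) and 8.11 CPM (aversive 1), so that its extremes lay within 1 group.

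Within a library the scaling factor cancels, so the ratio of related isoforms does not depend on normalisation. The ratio of Ppp1ca to Ppp1cb per kilobase was 4.09, 4.78 and 3.93 in mock 1, 2 and 3 and 5.80 and 6.71 in aversive 1 and 3. It was 16.7 and 11.9 in appetitive 1 and 2 and 28.8, 12.8 and 10.5 in neutral 1, 2 and 3. All mock and aversive libraries were therefore below all appetitive and neutral libraries, a split noticed after the values were seen and given with no test. The ratio of Ppp2ca to Ppp2cb ranged from 0.232 in aversive 3 to 3.26 in mock 3, and that of Ppp3ca to Ppp3cb from 1.77 in aversive 1 to 63.7 in appetitive 2. The ratio of Ppp4c to Ppp6c was 0.507 to 0.874 in mock and 2.00 to 5.85 in neutral, and reached 195 in aversive 1 and 0.0213 in appetitive 2, the libraries in which 1 of the pair was near the floor and the other was not.

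**Figure D3:**
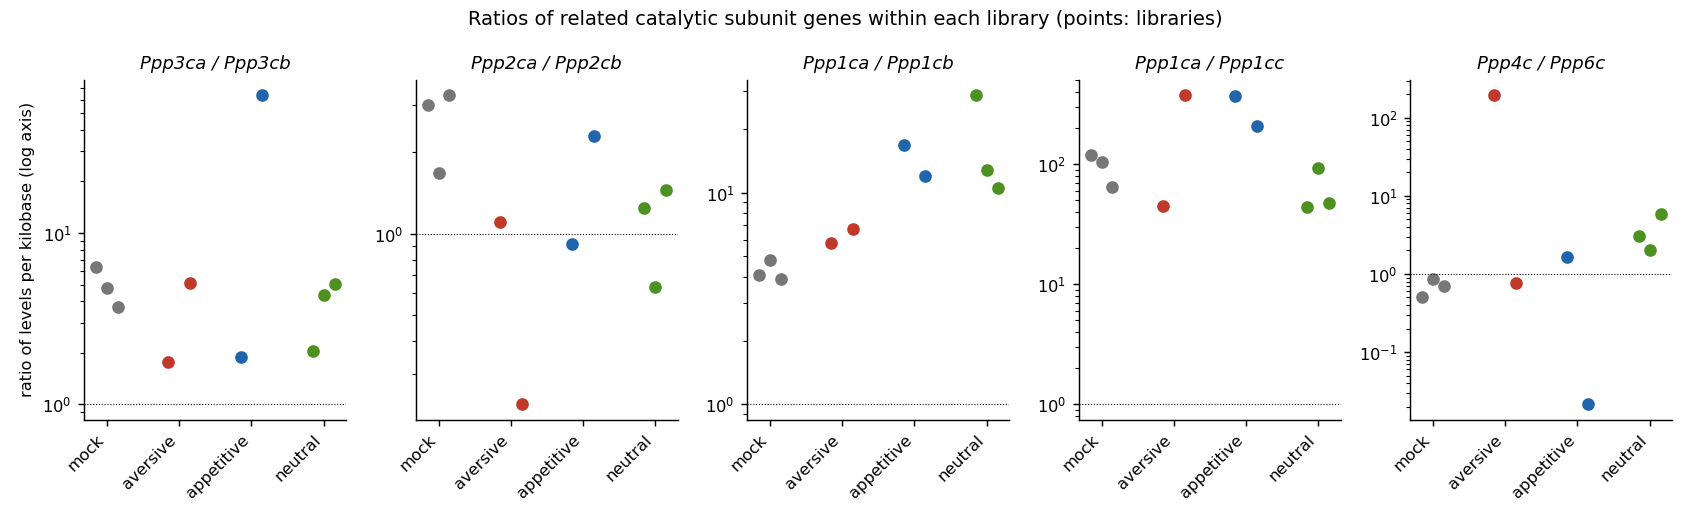
Points give, for each library, the ratio of levels per kilobase of exon (log axis) of 5 pairs of related genes, and dotted lines a ratio of 1. For Ppp1ca over Ppp1cb the mock and aversive libraries lie between 3.93 and 6.71 and the appetitive and neutral libraries between 10.5 and 28.8, and Ppp4c over Ppp6c spans from 0.766 to 195 within the aversive group.

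Groups without overlap were counted over the family, beside the share of all tested genes. Between aversive and mock, 3 members (Ppp2cb, Ppp3cb, Ppp4c) had aversive libraries above all mock libraries and 1 (Ppp5c) below, beside 11.4% and 24.7% of tested genes. Between appetitive and mock, 3 were above (Ppp1ca, Ppp2ca, Ppp2cb) and 4 below (Ppp1cb, Ppp1cc, Ppp4c, Ppp6c), beside 9.78% and 38.9%. Between neutral and mock, 3 were above (Ppp1cc, Ppp4c, Ppp5c) and 4 below (Ppp1cb, Ppp3ca, Ppp3cb, Ppp6c), beside 16.0% and 15.9%. As a description, 2 members were above and 3 below between appetitive and neutral (11.4% and 27.2% of genes), and 1 above and 1 below between appetitive and aversive (8.34% and 20.1%). Apart from Ppp4c no member passed the test in any comparison with mock, in which 0.0% (aversive), 1.98% (appetitive) and 0.0861% (neutral) of all genes passed in either direction. In the aversive and neutral comparisons with mock, 0 members had an unadjusted p under 0.05 in edgeR and 0 were called by DESeq2. Of all 19754 tested genes 1968 and 2658 had such a p. DESeq2 called 94 genes as higher and 1366 as lower of 18336 in aversive, and 387 and 1202 of 20890 in neutral.

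The median log2 fold change of the 10 genes was 0.18 between aversive and mock, -0.15 between appetitive and mock, 0.19 between neutral and mock and -0.10 between aversive and neutral. The medians of all tested genes were -0.13, -1.45, 0.08 and -0.15. In appetitive against mock the 8 members other than Ppp4c and Ppp6c were thus all above the median of all genes. Scaling by library size alone moved this median of all genes to -1.93 and DESeq2's size factors to -1.17. Between appetitive and neutral the members had a median of 0.28 beside -0.91 for all genes, and between appetitive and aversive -0.23 beside -0.48.

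**Figure D4:**
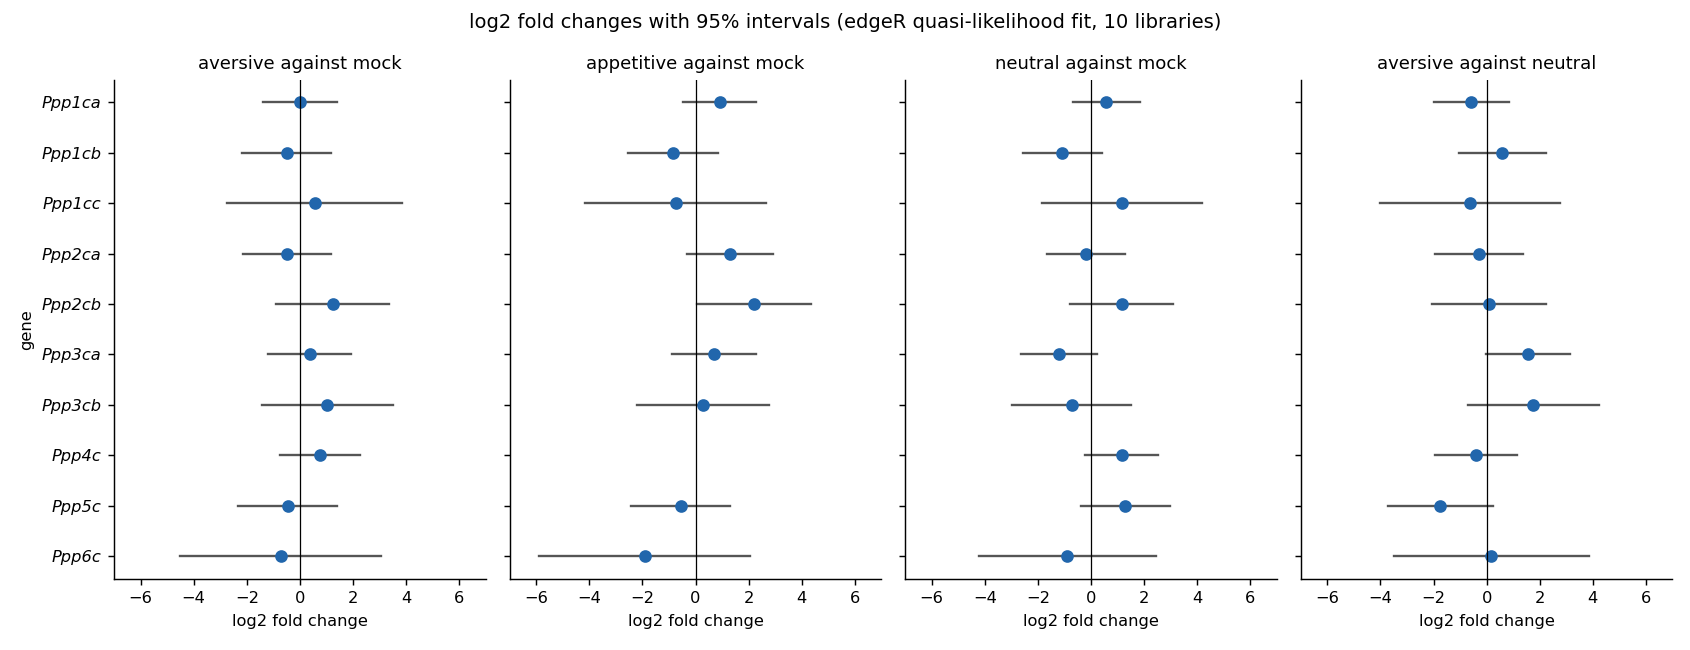
Points give the log2 fold change of each gene and lines its 95% interval from edgeR's quasi-likelihood fit of 10 libraries, in 4 comparisons (panels), with Ppp4c left out of appetitive against mock. Every interval spans 0 but that of Ppp2cb in appetitive against mock (0.05 to 4.35), whose adjusted p was 0.204.

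Of 78 regulatory subunits, inhibitors, targets and further catalytic subunits of these phosphatases, 76 were tested. None passed between aversive and neutral, aversive and mock or neutral and mock in edgeR. An unadjusted p under 0.05 was seen for 7, 2 and 11, and DESeq2 called 6, 2 and 3. Of all 19754 tested genes 3765, 1968 and 2658 had such a p. DESeq2 called 1402 genes as higher and 1986 as lower of 20890, 94 and 1366 of 18336, and 387 and 1202 of 20890. In appetitive against mock 4 were lower (5.26% of 76, beside 1.96% of all tested genes) and 0 higher, and in appetitive against aversive the same 4 were lower (beside 1.69%) and 0 higher. In appetitive against neutral 5 were lower (6.58%, near the 5.23% of all genes) and 1 was higher. The 4 genes were Ppp2r2b, Ppp2r5d, Ppp4r3b and Ppp6r3. With a block for replicate number 0 of the 76 were called in each of these comparisons. Of all 19754 genes the block left 12 higher and 61 lower against neutral and 0 against aversive and against mock. In a fit of the compared groups alone 0 of the 76 were called against neutral and against aversive and 7 against mock. That fit called 0 genes of any kind against neutral and against aversive, and 113 as higher and 3472 as lower of 16471 against mock. Ppp2r2b and Phactr3 are in the study's own lists for appetitive cells, so their calls are not independent evidence.

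Of 11 regulatory genes of PP4 and PP6, 2 were lower in appetitive against mock in edgeR. DESeq2 called 3, these and Ppp4r4, which was at 0 CPM in both appetitive libraries and at 0 to 3.38 CPM in mock. Of 17156 genes DESeq2 called 588 as higher and 4215 as lower in this comparison. Ppp4r3b, which recruits targets to PP4, fell in appetitive against mock by 4.93 on the log2 scale (SE 0.962, adjusted p = 0.0354). It was at 2.58 and 2.46 CPM in appetitive 1 and 2, against 81.5, 65.3 and 83.4 CPM in mock and 45.1 CPM or more in the aversive and neutral libraries. Ppp6r3, a regulatory subunit of PP6, fell by 6.43 (SE 1.29, adjusted p = 0.0369), with 0.391 and 0.681 CPM in appetitive and 29.5 to 75.2 CPM in mock. The appetitive libraries lay below all others in Ppp4r3b and Ppp6r3, but not in the list as a whole. In edgeR 9 of its 11 genes did not pass, and its median was 0.34 beside -1.45 for all genes. Ppp4r3a, the other PP4 subunit of this type and named after its values were seen, was at 88.7 and 96.9 CPM in appetitive and 20.1 to 60.7 CPM in mock. Ppp6r1, the most abundant of the list, was at 288 CPM in appetitive 1 and 0.576 CPM (11 counts) in appetitive 2. In appetitive against mock, leaving out any 1 mock or neutral library ended the calls of Ppp4r3b, Ppp6r3, Ppp2r2b and Ppp2r5d. Without mock 1, 2 or 3, 0 of all tested genes were called there, so these losses were not particular to the 4 genes. Without appetitive 1 Ppp6r3 was no longer called.

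Of the 25 scaffold, B subunit and assembly genes of PP2A, 2 were lower in appetitive against mock in edgeR and the rest did not pass. DESeq2 called the same 2. Ppp2r2b, a brain B subunit, had 1 and 2 counts in appetitive 1 and 2, or 0.0782 and 0.105 CPM, against 30.5 to 70.4 CPM in mock, 73.7 and 108 CPM in aversive and 9.96 to 14.8 CPM in neutral. Ppp2r5d, a B subunit of the B56 type, had 3 counts in each appetitive library and 40.5 to 62.1 CPM in mock (adjusted p = 0.0296). No fold is given for either, as no appetitive library had more than 3 counts. Ensa, which becomes an inhibitor of PP2A when phosphorylated and was the most abundant of the list, was at 749 and 166 CPM in appetitive 1 and 2 and at 90.7 to 292 CPM in mock (log2 fold change 1.07, SE 0.746, adjusted p = 0.369). The median of the list was 0.63.

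Of 24 PP1 regulators none passed against mock in edgeR. An unadjusted p under 0.05 was held by 0 (aversive), 4 (appetitive) and 7 (neutral), and DESeq2 called 0, 3 and 2. Of all 19754 tested genes 1968, 4696 and 2658 had such a p. DESeq2 called 94 genes as higher and 1366 as lower of 18336, 588 and 4215 of 17156, and 387 and 1202 of 20890. Between appetitive and neutral Ppp1r12b, a targeting subunit of myosin phosphatase, was lower, with 1 and 2 counts in the appetitive libraries, and Phactr3, an actin-binding PP1 regulator, was higher, at 300 and 158 CPM against 6.50, 4.62 and 4.11 CPM in neutral. In mock Phactr3 was at 155, 76.0 and 40.7 CPM, between these groups, and the neutral libraries were the lowest of all. Ppp1r12b also had only 19 counts in aversive 1, against 1941 in aversive 3. Ppp1r1b, known as DARPP-32, an inhibitor of PP1 in dopamine signalling, was the most abundant of the list through the neutral libraries, at 1795, 433 and 1447 CPM, against 0.0524 to 151 CPM elsewhere (neutral against mock 4.09 on the log2 scale, SE 1.64, adjusted p = 0.293). Its level was highest in the neutral libraries, which were also highest in choroid plexus markers, and the part of those cells was not tested.

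Of the 14 tested partners and targets of calcineurin none passed in any of the 6 comparisons in edgeR. Against mock, 1 (aversive), 4 (appetitive) and 2 (neutral) had an unadjusted p under 0.05 and DESeq2 called 1, 3 and 1. Between aversive and neutral 2 had such a p and DESeq2 called 2. Between appetitive and neutral these were 4 and 5, and between appetitive and aversive 1 and 1. Over all genes the counts against mock and between aversive and neutral are those given above. DESeq2 called 1579 genes as higher and 4474 as lower of 20890 between appetitive and neutral, and 871 and 3115 of 16568 between appetitive and aversive. Ppp3r1, the regulatory subunit that binds calcium and named after its values were seen, was called by DESeq2 in the 3 comparisons with the appetitive libraries. It was at 0.391 and 7.96 CPM in appetitive 1 and 2, below all other libraries, which had 15.5 CPM (neutral 1) to 60.8 CPM (mock 3), and its adjusted p in edgeR was 0.148 against mock, 0.141 against neutral and 0.211 against aversive. The list had a median of -0.34 in appetitive against mock and -0.04 in neutral against mock. Ppp3cc, the third calcineurin catalytic gene, was at 0.156 CPM (2 counts) in appetitive 1 and at 114 CPM in appetitive 2, another gene with its extremes within 1 group.

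**Figure D5:**
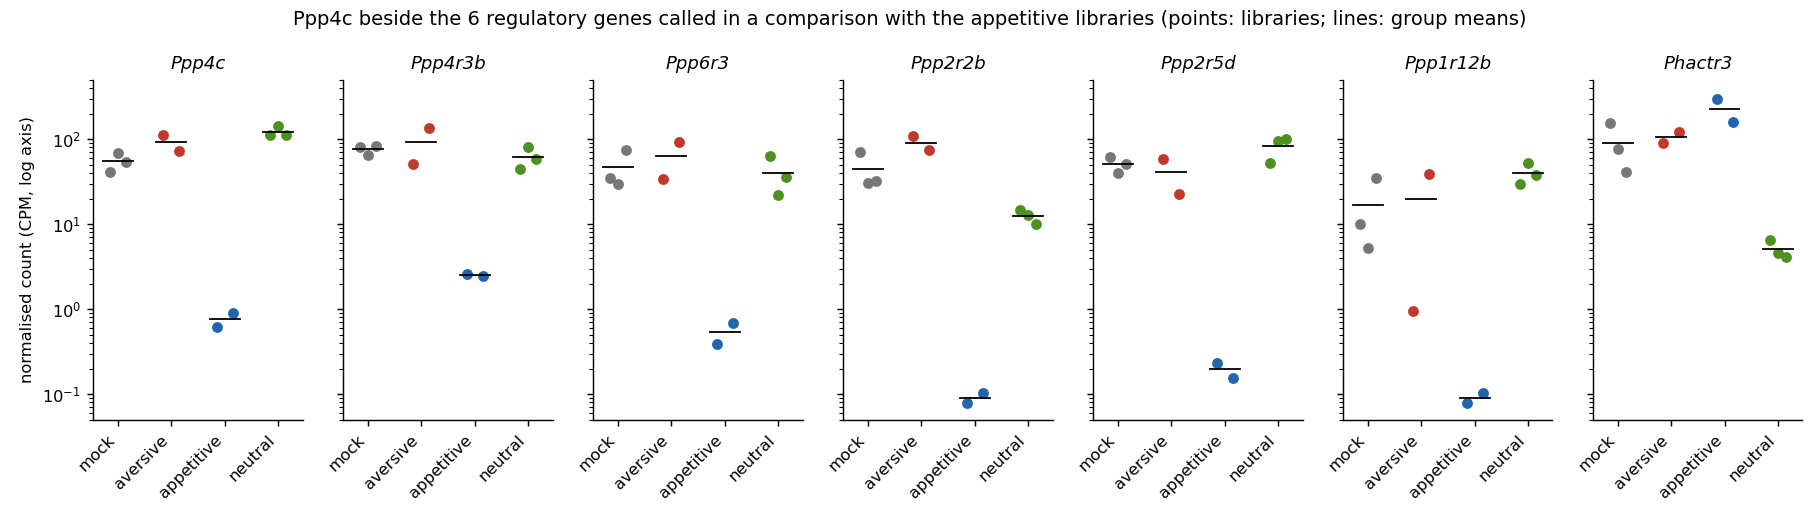
Points give the normalised count (CPM, log axis) of Ppp4c and of the 6 regulatory genes called in a comparison with the appetitive libraries, and lines the group means. In Ppp4c, Ppp4r3b, Ppp6r3, Ppp2r2b, Ppp2r5d and Ppp1r12b both appetitive points lie below all others, and in Phactr3 the neutral libraries are lowest, between 4.11 and 6.50 CPM.

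The genes with the pattern most like Ppp4c over the 10 libraries were Tcirg1, Evi5, Tradd, Ttc9 and Nup93. Their log2 levels, centred on the mean of each gene, differed from those of Ppp4c by 0.37, 0.37, 0.37, 0.38 and 0.39 on average, where the median over 19717 genes was 2.34. All 5 were below 1 CPM in both appetitive libraries. Tcirg1, a proton pump subunit, was at 0.547 and 0.838 CPM in them and at 31.4 CPM or more in all others. Evi5 and Ttc9 are also in the study's lists for appetitive cells. No other member was close to Ppp4c, the nearest, Ppp5c, differing by 1.66. For Ppp3ca the nearest were S100a6, Cdc37l1, Cd47, Prnp and Mgll, with differences of 0.27 to 0.32 beside a median of 1.97, and among the members Ppp1cb was nearest, at 0.80. S100a6, a calcium-binding protein, was at 11.2 to 20.1 CPM in neutral and at 23.1 to 127 CPM elsewhere.

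How closely the libraries of a group matched differed between the groups. Between replicates, after adding 0.5 CPM, 1 of the 10 genes differed more than 4-fold in mock (Ppp2cb), 3 in aversive (Ppp1cc, Ppp2ca, Ppp6c), 3 in appetitive (Ppp3cb, Ppp5c, Ppp6c) and 1 in neutral (Ppp1cb). Of all tested genes 14.4%, 34.9%, 31.9% and 32.0% did so. The rank correlation of counts between the libraries of a group, over genes, was 0.910 to 0.922 in mock, 0.766 to 0.864 in neutral, 0.637 in aversive and 0.606 in appetitive. By this correlation the replicates were least alike in the groups with 2 libraries, while by the share of genes past 4-fold appetitive and neutral were close.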

How the data were processed

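The authors mapped the first 40 bases of each read with STAR to mm10, indexed with the annotation of Ensembl release 91 (GRCm38), counted reads per gene with featureCounts (Subread) without strand, and deposited raw counts, 1 table per library. Versions of the tools were not given in the sources used here. Of 53379 identifiers 53274 matched GENCODE M21 (GRCm38).

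The counts were fitted as deposited in R 4.3.3 with edgeR 4.0.16 (TMM factors 0.48 to 1.45, filterByExpr, quasi-likelihood F test, 4 groups, 10 libraries, prior of 5.05 degrees of freedom, common dispersion 1.49). P-values are two-sided and adjusted by Benjamini-Hochberg over 19754 genes. CPM are normalised counts, and 3 counts, the floor, were 0.0346 to 0.235 CPM, which covers counting error only. Standard errors and 95% intervals come from the F statistics. Alternatives were DESeq2 1.42.0 (Wald test, size factors), library size alone, no filter, the compared groups alone, a replicate block and leaving out each library.

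The members and lists were chosen with earlier results of these data known. Named were the 10 members, companion genes called at an adjusted p under 0.05 (up to 5 per list and direction) or else the most abundant, the most abundant markers, and the 5 genes nearest to Ppp4c and Ppp3ca. A companion gene named by this rule is not reported here. Replicate numbers come from the labels. No pair of libraries of a group agreed within sampling noise. Python 3.11.15 with pandas 2.3.3 and matplotlib 3.10.9 served for summaries and plots.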

Additional observations from a re-analysis of the deposited data

Results flagged for a closer look

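The level of Ppp4c stood out because the aversive and appetitive libraries lay on opposite sides of every mock library. Both aversive libraries were above all mock libraries and both appetitive libraries below. The difference between appetitive and aversive was -6.93 on the log2 scale, which is also the difference between their effects against the neutral group. As the levels of Ppp4c in the appetitive, aversive and neutral libraries entered its choice, the difference is given as a value, with no p-value.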

How the results depend on the processing

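The number of members called moved for 3 comparisons, all with the appetitive libraries that chose Ppp4c, so that these counts are a description. In appetitive against neutral it was 1 as reported, 2 by DESeq2's Wald test (Ppp3ca and Ppp4c), 0 in a fit of the compared groups alone and 1 to 2 with each library left out. In appetitive against aversive it was 0 in the compared groups alone, and 0 to 1 with each library left out. In appetitive against mock it was 0 to 1 with each library left out. It was 0 under every alternative run in the other 3 comparisons.

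Replicate numbers did not pair the libraries: deviations from the group means of same-numbered libraries correlated between -0.037 and 0.164. With a block for replicate number, the number of members called was 0 in appetitive against aversive and in appetitive against mock. It was 1 in appetitive against neutral, and the number of companion genes called was 0 in all 6 comparisons. Of all 19754 tested genes 12 were called as higher and 61 as lower in appetitive against neutral, and 0 in every other comparison. Under the block Ppp6c in aversive against neutral was at -0.11 (0.18 as reported) and Ppp3cb in appetitive against mock at -0.32 (0.27).

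For companion genes in aversive against neutral (0 as reported), 3 were called with no filter, 6 by DESeq2 and 0 to 3 with each library left out. In appetitive against neutral (6) these were 10, 19 and 1 to 16, with 0 in the compared groups alone. In appetitive against aversive (4) DESeq2 called 11 and the compared groups alone 0, and 0 to 11 were called with each library left out. In aversive against mock DESeq2 called 2. In appetitive against mock (4) DESeq2 called 11, the compared groups alone 7, and 0 to 12 were called with each library left out. In neutral against mock 4 were called with no filter, 3 by DESeq2 and 0 to 1 with each library left out. The summed number of non-overlapping members over the 6 comparisons was 28 and 28 to 43 with each library left out, 43 without aversive 1. The aversive group has only 2 libraries, and in a smaller group any gene can more easily fail to overlap. The same count over all tested genes is not given here, and nothing is read from the rise.

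Library size alone turned the sign of Ppp2cb in aversive against neutral (-0.21), of Ppp1ca (-0.22) and Ppp1cc (-0.0030) in aversive against mock, of Ppp3cb in appetitive against mock (-0.78) and of Ppp2ca in neutral against mock (0.090), none of them past the threshold. With each library left out, log2 fold changes that turned sign ranged in aversive against neutral from -0.18 to 1.10 for Ppp1cb, -3.81 to 0.30 for Ppp1cc, -1.87 to 0.45 for Ppp2ca, -0.21 to 1.03 for Ppp2cb and -6.17 to 1.19 for Ppp6c. In aversive against mock they ranged from -0.73 to 0.44 for Ppp1ca, -1.37 to 0.0076 for Ppp1cb, -2.74 to 1.47 for Ppp1cc, -2.20 to 0.23 for Ppp2ca, -0.18 to 0.64 for Ppp3ca and -7.09 to 0.17 for Ppp6c. In appetitive against mock they ranged from -0.45 to 1.03 for Ppp3ca, -2.64 to 0.95 for Ppp3cb and -2.82 to 0.036 for Ppp5c. The other 595 of 624 alternative values of tested members kept their direction and stayed on their side of the threshold. The causes were not tested. By depth, 3 counts were 0.235 and 0.157 CPM in the appetitive libraries, and lower levels could not be detected there.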
